A study of Mus musculus with 12 samples.

Results

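Gata4, Gata6, Sox17, Sox7, Foxa1, Foxa2, Hnf4a, Dab2 and Afp are 9 genes that mark endoderm, among 18784 named genes measured on the arrays. They were chosen by name, as transcription factors and markers of the extraembryonic and embryonic endoderm, and were matched by gene symbol. Each has 1 probe set on the array that is annotated to it alone, and all 9 were kept and tested.

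The series profiled RNA from mouse embryonic stem cells (ESC) and from neural progenitor cells (NPC) on Affymetrix MoGene 1.0 ST arrays, with and without knockdown of Jarid1b, a histone H3 lysine 4 demethylase gene now named Kdm5b. There are 4 groups with 3 arrays each. Control ESC carried a scrambled shRNA (LKOScr) and knockdown ESC an shRNA against Jarid1b (LKOJarid1b). Control NPC and knockdown NPC carried the same constructs. The ESC line, E14TG2a.4, needs no feeder cells and was grown on gelatin with serum and LIF, and NPC were made by a published differentiation protocol. In all 4 groups the construct came from a lentivirus, with 16 h of exposure and puromycin selection from 48 h after transduction. The labels name 1 Jarid1b construct and 1 ESC line, but not whether replicates were transduced or cultured separately. The spread behind each p-value is therefore that of these arrays alone and may be technical.

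Endoderm arises more than once in the mouse embryo. The primitive endoderm of the blastocyst, set apart by GATA6 and then GATA4, SOX17 and SOX7, gives the visceral and parietal yolk sac layers, and the definitive endoderm of the gastrula, which depends on SOX17, FOXA2 and Nodal signalling, gives the gut tube. FOXA1 and FOXA2 are forkhead factors that open chromatin at liver and gut genes, HNF4A is a nuclear receptor of visceral endoderm and liver, DAB2 is an endocytic adaptor needed in visceral endoderm, and AFP is a serum protein that this layer secretes. Several of these genes also act elsewhere: GATA4 and GATA6 in heart and mesenchyme, SOX7 and SOX17 in blood vessels, FOXA1 and FOXA2 in the floor plate of the neural tube.

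The start-site windows below show both Dab2 starts, which differ in base composition, and 1 window each of Foxa1 and Hnf4a that holds a motif. RefSeq windows on GRCm38.p6, from 250 bases before to 50 bases after an annotated transcript start, were available for 5 of the 9 genes, 9 windows in all. Capitals mark matches to the GATA motif (AGATAA or TGATAA) or the forkhead motif (TGTTTAC or TATTTAC), searched on both strands. The SOX motif ACAATG had no match in any of the 9 windows. The first Dab2 window is chr15:6299539-6299838 and the second chr15:6386498-6386797, both on the plus strand. The Foxa1 window is chr12:57546062-57546361 on the minus strand, and the first Hnf4a window is chr2:163506607-163506906 on the plus strand.
Dab2 window 1: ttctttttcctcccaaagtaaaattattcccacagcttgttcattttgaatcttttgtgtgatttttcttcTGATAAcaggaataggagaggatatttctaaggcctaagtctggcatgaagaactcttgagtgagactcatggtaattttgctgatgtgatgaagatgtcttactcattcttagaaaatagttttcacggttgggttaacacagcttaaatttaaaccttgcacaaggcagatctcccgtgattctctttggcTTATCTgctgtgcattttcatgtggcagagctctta
Dab2 window 2: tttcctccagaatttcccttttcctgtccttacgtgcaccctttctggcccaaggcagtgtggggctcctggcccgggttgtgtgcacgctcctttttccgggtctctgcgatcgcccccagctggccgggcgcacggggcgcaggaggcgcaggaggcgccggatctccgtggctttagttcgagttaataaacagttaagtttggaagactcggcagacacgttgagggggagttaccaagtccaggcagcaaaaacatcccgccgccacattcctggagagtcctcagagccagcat
Foxa1 window: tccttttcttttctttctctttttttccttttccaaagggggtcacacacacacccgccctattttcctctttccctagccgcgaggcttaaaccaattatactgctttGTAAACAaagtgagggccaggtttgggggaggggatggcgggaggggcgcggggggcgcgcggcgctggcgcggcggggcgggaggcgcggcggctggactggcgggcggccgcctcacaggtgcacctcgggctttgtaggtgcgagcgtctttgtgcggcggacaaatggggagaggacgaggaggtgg
Hnf4a window 1: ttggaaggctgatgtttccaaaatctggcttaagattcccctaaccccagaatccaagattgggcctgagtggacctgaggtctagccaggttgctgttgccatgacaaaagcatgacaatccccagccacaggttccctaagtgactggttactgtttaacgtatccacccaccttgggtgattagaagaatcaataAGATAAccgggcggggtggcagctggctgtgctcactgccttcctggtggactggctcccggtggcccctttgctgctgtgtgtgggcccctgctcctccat

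The Dab2 starts are of different kinds. Window 1 is poor in CpG, with a ratio of observed to expected CpG of 0.188 and 37.7% G or C, and holds TGATAA 179 bases before the start and AGATAA on the other strand 15 bases after it. Window 2 has a CpG ratio of 0.72, 59.3% G or C and no match to any of the motifs. Over 32817 windows of the same length, the CpG ratio had quartiles of 0.176, 0.383 and 0.75, and 18.6% held a GATA motif. The Foxa1 window, with a CpG ratio of 0.929, holds TGTTTAC on its minus strand relative to transcription 141 bases before the start; 6.54% of all windows hold a forkhead motif. The Hnf4a window 1, with a CpG ratio of 0.183, holds AGATAA 52 bases before the start. Among the windows not shown, window 3 of Foxa2 holds AGATAA 183 bases before its start, and the other Foxa2 windows, Hnf4a window 2 and the Afp window hold none of the motifs. These matches are descriptions of the letters and not binding sites. The probe sets do not tell which start was used.

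All values are log2 expression as deposited. Kdm5b, the targeted gene, was lower by 1.72 ± 0.11 (SE) in knockdown than in control ESC (limma adjusted p = 1.82e-05), with log2 -0.76 ± 0.11 (SE) in NPC (limma adjusted p = 0.00524). With either construct, all 10 measured neural progenitor markers were higher and all 11 pluripotency markers lower in NPC than in ESC. All passed at a limma adjusted p under 0.05. Over all genes, 23.5% passed as higher and 25.1% as lower in control cells, and 23.8% and 25% in knockdown cells. Both lists were chosen with earlier results of these data known, so they are no independent check of the cell labels. Summed up as a mean over its genes, the pluripotency list lay at 11.90 to 12.09 in ESC, 7.07 to 7.73 in control NPC and 7.81 to 8.53 in knockdown NPC. Arrays within a group correlated at 0.992 to 0.997.

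More of the endoderm genes were called between cell states than with knockdown, as was so for genes in general, and Dab2 was the only one of the 9 called in a knockdown comparison. In NPC compared with ESC, Gata6, Sox17, Foxa1, Foxa2 and Dab2 were higher with either construct. That is 5 of 9 members called in control cells, where 48.6% of all genes were called (23.5% higher and 25.1% lower), and 6 of 9 in knockdown cells, where 48.8% were called (23.8% higher and 25% lower). The sixth in knockdown cells was Hnf4a, which was lower. The median difference of the 9 genes was 0.51 in control and 0.32 in knockdown cells, beside -0.042 and -0.068 for all genes. The groups did not overlap for 6 of 9 members in control cells (52.3% of all genes) and for 7 of 9 in knockdown cells (62.4% of all genes). In ESC, knockdown called 1 of 9 members, beside 5.21% of all genes (1.84% higher and 3.37% lower), with 2 members and 19.2% of all genes at an unadjusted limma p under 0.05. In NPC it called 0 of 9, beside 1.03% of all genes (0.82% higher and 0.213% lower), with 3 members and 9.52% of all genes at an unadjusted limma p under 0.05. The knockdown effect differed between the states for 0 of 9 members by limma, beside 1.42% of all genes, with 2 members and 15.3% of all genes at an unadjusted p under 0.05. A gene is called when limma's Benjamini-Hochberg adjusted p over all genes is under 0.05.

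**Figure D1:**
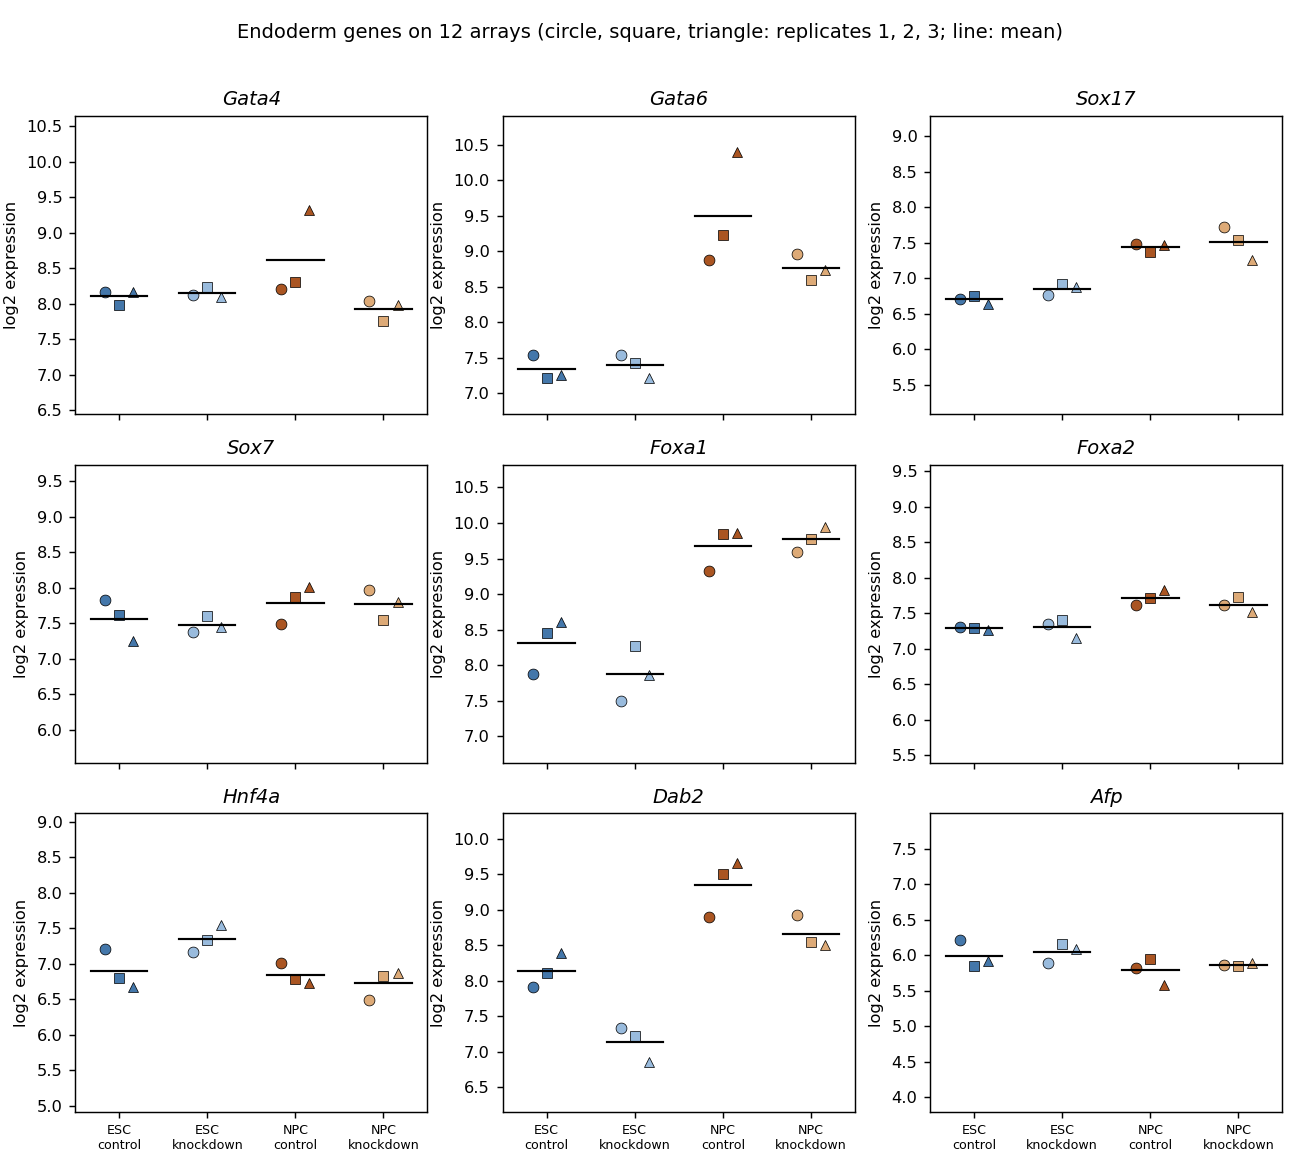
Log2 expression (vertical axis) of the 9 endoderm genes in the 4 groups, 1 symbol per array (circle, square and triangle for replicates 1, 2 and 3) with the group mean as a line; every panel spans the same number of log2 units. Gata6, Foxa1 and Dab2 sit higher in all NPC arrays than in all ESC arrays, and replicate 3 of control NPC is the highest Gata4 and Gata6 array.

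GATA6, the factor that starts the primitive endoderm programme, had the largest rise of the 9 genes from control ESC to control NPC. Gata6 (Entrez gene 14465) was at 7.54, 7.21 and 7.26 in control ESC and at 7.54, 7.42 and 7.22 in knockdown ESC. In NPC it was at 8.88, 9.22 and 10.39 with the control construct and at 8.96, 8.60 and 8.74 with the knockdown. All 6 NPC arrays lay above all 6 ESC arrays, and control NPC spread widely, with 1 array more than a log2 unit above the others. The rise was 2.16 ± 0.28 (SE), 4.46-fold, in control cells (limma adjusted p = 2.27e-05) and 1.37 ± 0.28 (SE), 2.59-fold, in knockdown cells (limma adjusted p = 0.00109). In bulk RNA, more cells that express a gene and more RNA per cell cannot be told apart.

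Gata4 (Entrez gene 14463), which acts with GATA6 in the yolk sac endoderm and the heart, had smaller differences between the states, and neither passed the test. Its arrays read 8.17, 7.98 and 8.16 in control ESC, 8.12, 8.23 and 8.10 in knockdown ESC, 8.21, 8.31 and 9.32 in control NPC, and 8.04, 7.76 and 7.98 in knockdown NPC. Apart from replicate 3 of control NPC, every array lay between 7.76 and 8.31. NPC minus ESC was 0.51 ± 0.22 (SE, limma adjusted p = 0.0738) in control cells and -0.22 ± 0.22 (SE, limma adjusted p = 0.427) in knockdown cells. The control difference passed the threshold when control NPC replicate 1 (0.71, limma adjusted p = 0.0171) or replicate 2 (0.66, limma adjusted p = 0.0376) was left out, which gives replicate 3 more weight.

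In NPC, knockdown minus control was -0.68 ± 0.22 (SE) for Gata4, with a 95% interval of -1.16 to -0.21 (limma adjusted p = 0.227), and the groups did not overlap, as for 14.2% of all genes. For Gata6 it was -0.73 ± 0.28 (SE), with an interval of -1.34 to -0.12 (limma adjusted p = 0.379), and the groups overlapped. Neither gene passed the test. Without control NPC replicate 3 the differences were -0.33 for Gata4 (limma adjusted p = 0.292) and -0.28 for Gata6 (limma adjusted p = 0.566). In ESC the knockdown differences were 0.046 ± 0.22 and 0.057 ± 0.28 (SE), with intervals of -0.43 to 0.52 and -0.55 to 0.67. The test of the difference between states gave limma adjusted p = 0.282 for Gata4 and 0.38 for Gata6.

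SOX17 and SOX7 belong to the SOXF subfamily, shared by endoderm and endothelium. Sox17 (Entrez gene 20671) read 6.71, 6.75 and 6.64 in control ESC, 6.76, 6.91 and 6.88 in knockdown ESC, 7.48, 7.37 and 7.47 in control NPC, and 7.72, 7.54 and 7.26 in knockdown NPC. The states did not overlap, and the ESC arrays of each group lay within a narrow band. It rose by 0.74 ± 0.11 (SE), 1.67-fold, in control cells (limma adjusted p = 5.6e-05) and by 0.66 ± 0.11 (SE), 1.58-fold, in knockdown cells (limma adjusted p = 0.000167). With knockdown, the difference was 0.15 ± 0.11 (SE) in ESC, where the groups did not overlap (as for 24.2% of all genes; limma adjusted p = 0.488), and 0.069 ± 0.11 (SE) in NPC (limma adjusted p = 0.952).

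Sox7 (Entrez gene 20680) passed no test, and no neighbouring groups in its order of means were separate. Its arrays read 7.82, 7.61 and 7.25 in control ESC, 7.38, 7.60 and 7.44 in knockdown ESC, 7.49, 7.87 and 8.01 in control NPC, and 7.96, 7.54 and 7.80 in knockdown NPC. NPC minus ESC was 0.23, with an interval of -0.13 to 0.58, in control cells and 0.29, with an interval of -0.06 to 0.65, in knockdown cells (limma adjusted p = 0.286 and 0.158). The knockdown differences were -0.087 in ESC and -0.021 in NPC.

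FOXA1 and FOXA2 are closely related and replace each other at many liver and gut enhancers. Foxa1 (Entrez gene 15375) read 7.87, 8.45 and 8.61 in control ESC, 7.49, 8.27 and 7.86 in knockdown ESC, 9.32, 9.85 and 9.86 in control NPC, and 9.59, 9.78 and 9.95 in knockdown NPC. Every NPC array was above every ESC array. The rise was 1.37 ± 0.22 (SE), 2.58-fold, in control cells (limma adjusted p = 0.000163) and 1.90 ± 0.22 (SE), 3.74-fold, in knockdown cells (limma adjusted p = 9.25e-06). The knockdown difference was -0.44 ± 0.22 (SE) in ESC, with an interval of -0.92 to 0.047 (limma adjusted p = 0.315), and the groups overlapped. In NPC it was 0.096 ± 0.22 (SE, limma adjusted p = 0.971).

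Foxa2 (Entrez gene 15376) took the same direction over a smaller range. It read 7.31, 7.29 and 7.27 in control ESC, 7.35, 7.40 and 7.15 in knockdown ESC, 7.62, 7.71 and 7.83 in control NPC, and 7.61, 7.73 and 7.52 in knockdown NPC. The states did not overlap, though the gap was small. NPC were higher by 0.43 ± 0.094 (SE), 1.35-fold, in control cells (limma adjusted p = 0.00161) and by 0.32 ± 0.094 (SE), 1.25-fold, in knockdown cells (limma adjusted p = 0.0116). The call in knockdown cells was lost without knockdown ESC replicate 3 (limma adjusted p = 0.0613) or knockdown NPC replicate 2 (0.0559). Knockdown differences were 0.014 in ESC and -0.096 in NPC, each with an SE of 0.094, and neither passed.

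Hnf4a (Entrez gene 15378) was the one factor whose highest group was in ESC. It read 7.20, 6.80 and 6.67 in control ESC, 7.17, 7.33 and 7.54 in knockdown ESC, 7.01, 6.79 and 6.73 in control NPC, and 6.49, 6.82 and 6.87 in knockdown NPC. Replicate 1 of control ESC overlapped the knockdown group, and the other control arrays lay below it. Knockdown minus control in ESC was 0.45 ± 0.15 (SE), with an interval of 0.13 to 0.78 (limma adjusted p = 0.107), which did not pass. It passed without control ESC replicate 1 (0.61, limma adjusted p = 0.0235) and with array weights (0.60, limma adjusted p = 0.00994). NPC minus ESC was -0.05 ± 0.15 (SE, limma adjusted p = 0.822) in control cells and a called -0.62 ± 0.15 (SE), 1.54-fold lower, in knockdown cells (limma adjusted p = 0.00381). The difference between these state effects, which equals the difference between the knockdown effects, was -0.57 ± 0.21 (SE, limma adjusted p = 0.223).

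**Figure D2:**
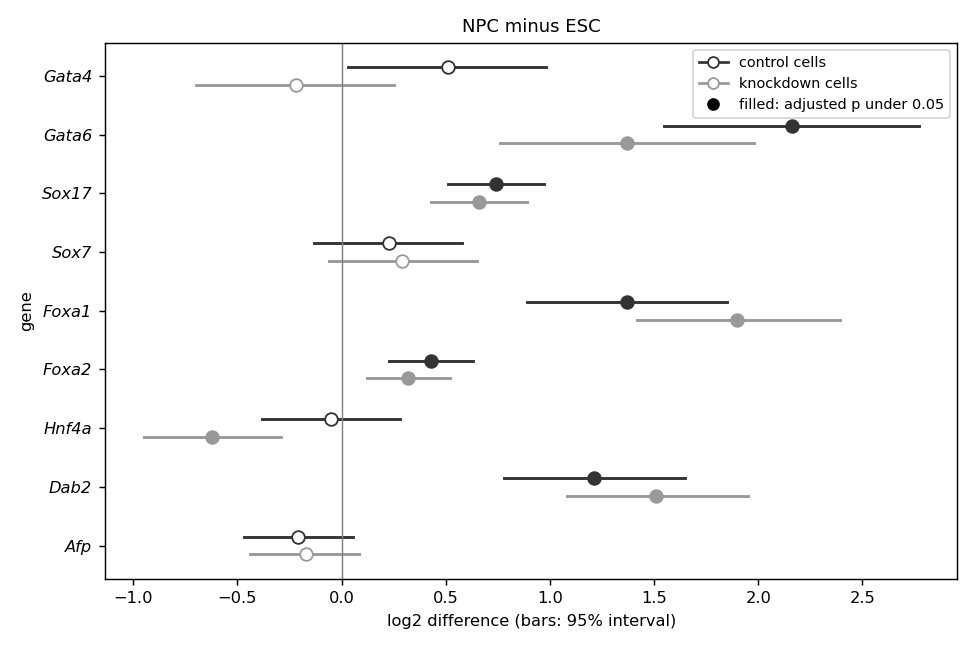
Log2 difference, NPC minus ESC (horizontal axis), for the 9 endoderm genes in control (black) and knockdown (grey) cells, with 95% intervals as bars and filled points for an adjusted p under 0.05. Gata6, Sox17, Foxa1, Foxa2 and Dab2 are filled above 0 with both constructs, and Hnf4a is filled below 0 in knockdown cells at -0.62.

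Dab2 (Entrez gene 13132), the endocytic adaptor, was the member that fell with knockdown. Its arrays read 7.91, 8.11 and 8.39 in control ESC and 7.34, 7.22 and 6.86 in knockdown ESC. In NPC they read 8.89, 9.50 and 9.65 with the control construct and 8.93, 8.54 and 8.50 with the knockdown. The ESC groups were separate, and in NPC replicate 1 of both groups lay side by side while the other replicates were apart. In ESC the change was -0.99 ± 0.20 (SE), 1.99-fold lower, with an interval of -1.43 to -0.56 (limma adjusted p = 0.0152). The call did not survive leaving out control ESC replicate 3 (-0.87, limma adjusted p = 0.0895) or knockdown ESC replicate 3 (-0.85, limma adjusted p = 0.0751).

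In NPC the Dab2 difference was -0.69 ± 0.20 (SE), with an interval of -1.12 to -0.26 (limma adjusted p = 0.164), which did not pass. It passed without control NPC replicate 1 (-0.92, limma adjusted p = 0.0316), and was -0.54 without control NPC replicate 3 (limma adjusted p = 0.395). The knockdown effects in the 2 states differed by 0.30 ± 0.28 (SE), with an interval of -0.31 to 0.92 (limma adjusted p = 0.66). Between states Dab2 rose by 1.21 ± 0.20 (SE), 2.31-fold, in control cells (limma adjusted p = 0.000189) and by 1.51 ± 0.20 (SE), 2.86-fold, in knockdown cells (limma adjusted p = 2.78e-05). Its groups stood in the order knockdown ESC, control ESC, knockdown NPC, control NPC, and only the NPC groups overlapped.

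Afp (Entrez gene 11576), the secreted product of visceral endoderm and fetal liver, stayed near the floor of the array. It ranged from 5.84 to 6.21 in control ESC, 5.89 to 6.15 in knockdown ESC, 5.58 to 5.95 in control NPC and 5.84 to 5.89 in knockdown NPC. The lower quartile of an array, taken as the limit of low values, lay at a median of 5.98, and 9 of the 12 Afp values were under it. No Afp comparison passed. Levels this low cannot be told from absence, since the deposited values carry no detection calls. Other genes of visceral endoderm and liver were mixed, and are named here after their values were seen. Alb, which encodes albumin, Ttr, the thyroxine carrier, and Apob, the main protein of lipoprotein particles, lay under 5.98 on all 12 arrays, with group means of 4.41 to 4.56, 5.13 to 5.33 and 5.42 to 5.57. Apoa1 and Apoe, which encode apolipoproteins, Amn, a partner of cubilin, and Rbp4 and Trf, which encode carriers of retinol and iron, lay above 5.98 on all 12, with single arrays at 6.79 to 7.14 for Apoa1, 10.18 to 12.99 for Apoe, 6.81 to 7.59 for Amn, 6.58 to 8.31 for Rbp4 and 6.34 to 8.44 for Trf. Cubn, which encodes cubilin itself, lay under 5.98 on all arrays outside control NPC, where 1 of 3 was under it.

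**Figure D3:**
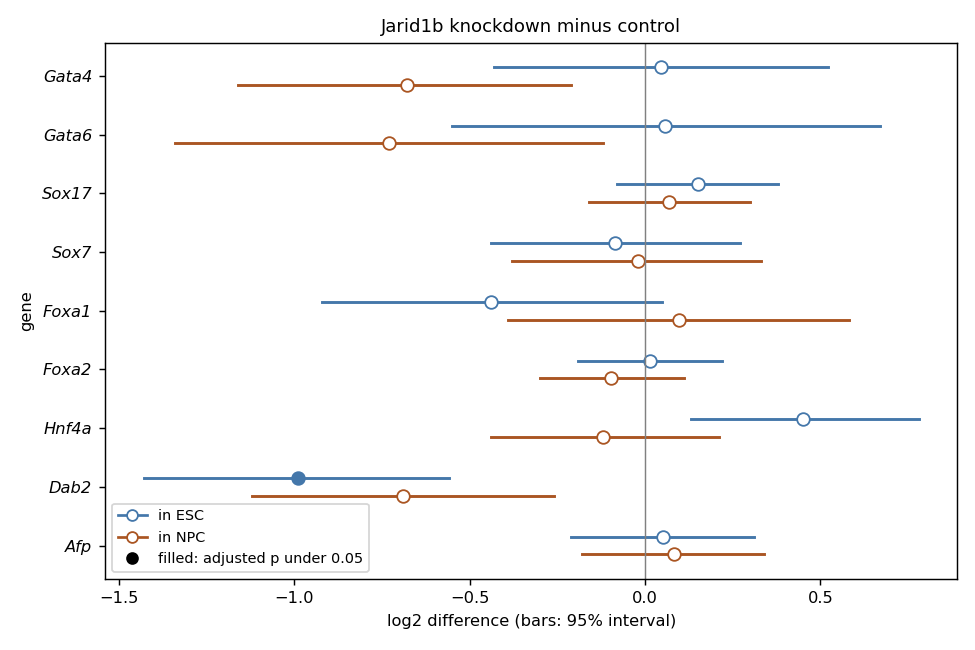
Log2 difference, knockdown minus control (horizontal axis), for the 9 endoderm genes in ESC (blue) and NPC (orange), with 95% intervals as bars and filled points for an adjusted p under 0.05. Dab2 in ESC, at -0.99, is the one filled point; the NPC intervals of Gata4, Gata6 and Dab2 lie below 0 without passing the adjusted threshold.

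The endothelial, mesenchymal and cardiac marker lists were highest on the same NPC array as Gata4, Gata6 and Dab2. The order of the other arrays differed in part. The mean of the 13 endothelial markers was 7.40, 8.02 and 8.18 in control NPC replicates 1 to 3 and 7.17, 7.10 and 6.79 in knockdown NPC. The mean of the 9 fibroblast and mesenchyme markers was 7.32, 7.56 and 7.68 against 7.09, 7.08 and 6.85. The mean of the 9 cardiac markers was 7.33, 7.43 and 7.61 against 7.22, 7.40 and 7.17. In all 3 lists, and for Gata4, Gata6 and Dab2, control NPC replicate 3 was the highest NPC array. Not all lists peaked there. The floor plate list and the primitive, visceral and parietal endoderm list were highest in control replicate 2 (8.77 and 8.32). Replicate 3 was at 8.72 and 8.20 for these. The pluripotency list was highest in knockdown replicate 1 (8.53) and the neural progenitor list in control replicate 1 (11.14). The list of close relatives and partners of the 9 genes was highest in control replicate 3 (8.20). Among knockdown NPC arrays, Gata4 and Gata6 were lowest in replicate 2 (7.76 and 8.60), where the cardiac list was highest (7.40). The endothelial and mesenchymal lists were lowest in knockdown replicate 3 (6.79 and 6.85), as was Dab2 (8.50). Dab2 replicate 1 was at 8.89 in control and 8.93 in knockdown NPC, while the endothelial, mesenchymal and cardiac lists were higher in control replicate 1. In NPC with knockdown, 4 of 13 endothelial markers fell and 0 rose (median -0.76), and 1 of 9 mesenchymal markers fell and 0 rose (median -0.40). The mesenchymal call was Postn, which lay under the low limit on 2 of 3 control and all 3 knockdown NPC arrays. The size of its fall is therefore set against the floor of the array. No cardiac marker passed (0 of 9, median -0.21), with 4 at an unadjusted limma p under 0.05. Over all genes, 0.213% fell and 0.82% rose, with a median of 0.0037, and 9.52% had an unadjusted limma p under 0.05. Of the endothelial defining markers, Cdh5, which encodes the junction protein VE-cadherin, changed by -1.98, and its call and that of Emcn held without any single array but were lost in the 6 NPC arrays alone (limma adjusted p = 0.085 and 0.0847) and in these with a replicate block (0.0762 and 0.0916). The other calls, of Tie1, Cldn5 and the mesenchymal Postn, were each lost without several single arrays, among them control NPC replicate 3 (limma adjusted p = 0.0862, 0.0824 and 0.11), control NPC replicate 2 (0.121, 0.0593 and 0.117) and knockdown NPC replicate 2 (0.0861, 0.0898 and 0.149) and 3 (0.0898, 0.0863 and 0.125). The neural progenitor list stayed at 10.92 to 11.14 in control and 10.91 to 11.04 in knockdown NPC, and all 3 measured macrophage markers were under the low limit on all arrays. The part of these cell types in the differences of the endoderm genes was not tested.

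**Figure D4:**
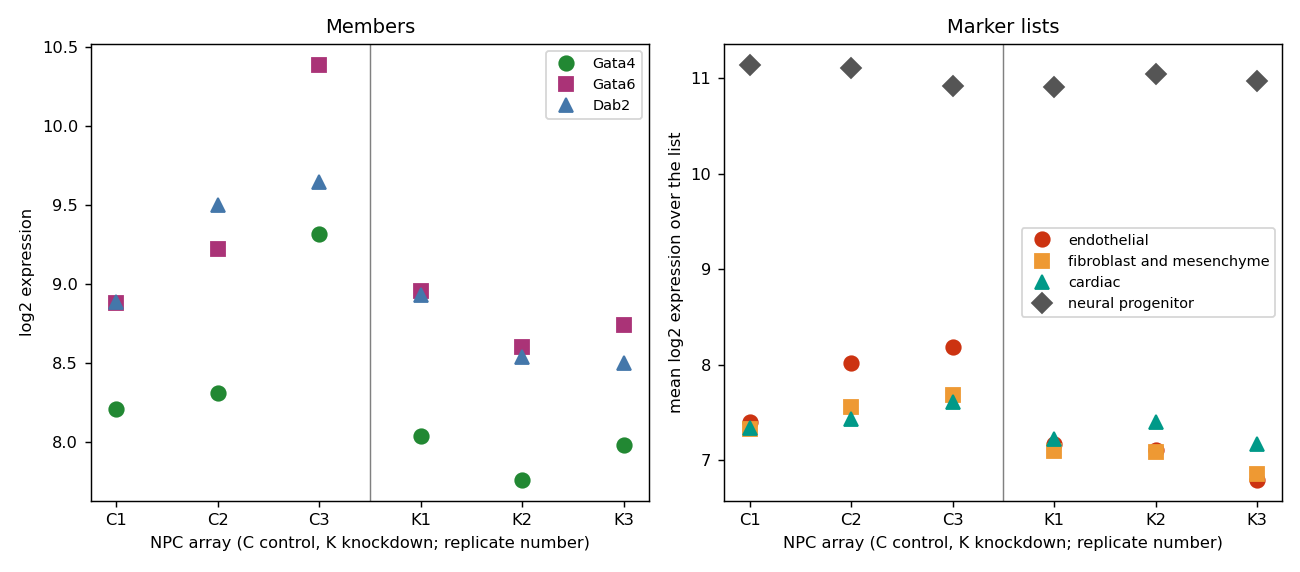
Left, log2 expression of Gata4, Gata6 and Dab2 on the 6 NPC arrays (C, control; K, knockdown; number, replicate); right, the mean log2 expression of 4 marker lists on the same arrays. Control replicate 3 is highest for the 3 genes and for the endothelial, mesenchymal and cardiac lists (8.18, 7.68 and 7.61), and the neural progenitor list stays between 10.91 and 11.14.

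Among other genes of the primitive, visceral and parietal endoderm, 24 of 25 were measured. In ESC with knockdown 1 rose and 1 fell, beside 1.84% and 3.37% of all genes. Lama1, a laminin chain of the basement membrane, rose by 0.86 ± 0.15 (SE, limma adjusted p = 0.00826), and Lrp2, the endocytic receptor megalin, which binds DAB2, fell by 0.95 ± 0.13 (SE, limma adjusted p = 0.00298). In NPC neither direction had a call (0 of 24, limma, beside 1.03% of all genes), with a median of -0.13. At an unadjusted limma p under 0.05 there were 9 of 24, beside 9.52% of all genes. The Lrp2 effect differed between states by 1.36 ± 0.18 (SE, limma adjusted p = 0.00682): like Dab2 it fell in ESC, while in NPC its difference was 0.41 ± 0.13 (SE, limma adjusted p = 0.202).

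Between the states, 9 of these 24 rose and 5 fell in control cells, beside 23.5% and 25.1% of all genes. In knockdown cells 8 rose and 5 fell, beside 23.8% and 25% of all genes. The genes with the smallest p went both ways. Pth1r, the parathyroid hormone receptor of parietal endoderm, rose by 3.60 ± 0.16 (SE), Plat, a plasminogen activator, by 3.68 ± 0.25 (SE) and Bmp2, a growth factor, by 2.42 ± 0.16 (SE), while Apoe, an apolipoprotein, fell by 2.38 ± 0.12 (SE). Plat and Bmp2 lay near the floor in control ESC, at means of 6.28 and 6.10, each with 1 of 3 arrays under the low limit. The list's mean level was 7.77 to 8.08 in control ESC and 8.08 to 8.32 in control NPC.

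Genes of definitive endoderm and gut, 19 of 20 measured, split by state in the same mixed way. In control NPC 5 were higher and 8 lower, beside 23.5% and 25.1% of all genes. In knockdown NPC 8 were higher and 6 lower, beside 23.8% and 25% of all genes. Lhx1, Sox9 and Prox1, transcription factors that also act in the nervous system, rose in control NPC by 3.87 ± 0.12, 3.77 ± 0.097 and 3.61 ± 0.13 (SE). Prox1 lay at a mean of 5.94 in control ESC, under the low limit, and Lhx1 at 6.06, with 1 array under the limit. Otx2, a factor of epiblast, anterior endoderm and forebrain, fell in control NPC by 4.90 ± 0.19 (SE). With knockdown in ESC, 4 fell and 0 rose, beside 3.37% and 1.84% of all genes (median -0.27, beside 0.017 for all genes). Cldn6, a tight junction protein of embryonic epithelia, fell by 0.96 ± 0.16 (SE, limma adjusted p = 0.00747). Epcam, an epithelial adhesion gene (-0.75 ± 0.18), Cdx2, a hindgut and trophoblast factor (-0.69 ± 0.16), and Krt18, a keratin of simple epithelia (-1.70 ± 0.39, SE), were called at limma adjusted p = 0.0346, 0.0247 and 0.0269. Without control ESC replicate 3 these became 0.152, 0.128 and 0.109, and without knockdown ESC replicate 3 they became 0.122, 0.107 and 0.111. Leaving out knockdown ESC replicate 1 also ended the Epcam and Cdx2 calls (0.0557 and 0.0762), knockdown ESC replicate 2 the Epcam and Krt18 calls (0.111 and 0.0975), and control ESC replicate 2 or knockdown NPC replicate 3 the Epcam call (0.0892 and 0.0523). In NPC 0 of 19 passed (limma), beside 1.03% of all genes. At an unadjusted limma p under 0.05 there were 3 of 19, beside 9.52% of all genes. The neural progenitor list was also lower as a mean in knockdown ESC, where Dab2 fell too. The mean of 10 was 8.83 to 8.95 in control and 8.52 to 8.65 in knockdown ESC. The markers were mixed, with 6 negative and 4 positive differences (median -0.36), and 3 were called lower and 0 higher. The 3 were Cdh2 (-0.99), Pax6 (-0.91) and Slc1a3 (-0.56). The Pax6 call was lost without control ESC replicate 2 (limma adjusted p = 0.0623) or 3 (0.0605) or knockdown ESC replicate 2 (0.0746) or 3 (0.0936). The part of these markers' cells in the ESC differences was not tested.

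Of 20 genes of the signals that induce endoderm, all measured, 2 fell in ESC and 2 rose in NPC with knockdown. Over all genes, 3.37% fell in ESC and 0.82% rose in NPC. Nodal, the inducing ligand, fell in ESC by 0.79 ± 0.15 (SE, limma adjusted p = 0.011; 0.0634 without control ESC replicate 3) and changed in NPC by 0.74 ± 0.15 (SE, limma adjusted p = 0.0342), a call lost without any one of 9 arrays, with adjusted p up to 0.161 without knockdown NPC replicate 1. The Nodal effects differed by 1.53 ± 0.21 (SE, limma adjusted p = 0.00739). Lefty1, the Nodal inhibitor, was called lower in ESC (-0.95 ± 0.25, SE, limma adjusted p = 0.0494), and Tdgf1, the Nodal co-receptor Cripto, higher in NPC (1.02 ± 0.19, SE, limma adjusted p = 0.0214). The Tdgf1 call was lost without control NPC replicate 2 (0.0769) or 3 (0.0575) or knockdown NPC replicate 1 (0.0597) or 2 (0.0949), with array weights (0.0844), in the 6 NPC arrays alone (0.152) and in these with a replicate block (0.118). The Lefty1 call was lost without any one of 9 arrays, with adjusted p up to 0.192 without control ESC replicate 3. Pluripotency markers were higher in the same knockdown NPC, at a list mean of 7.81 to 8.53 against 7.07 to 7.73 in control NPC. Of 11, 3 were called higher and 0 lower (median 0.64): Dppa5a (2.43), Utf1 (1.44) and Esrrb (0.64). The Esrrb call was lost without control NPC replicate 2 (limma adjusted p = 0.0568) or knockdown NPC replicate 1 (0.0707) or 2 (0.0647), and all 3 calls were lost in the 6 NPC arrays alone (0.0905, 0.0793 and 0.0904 in that order). Their part in the Nodal and Tdgf1 differences was not tested.

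Close relatives and partners of the 9 genes, 11 of 12 measured, had no call in either knockdown comparison (limma). Over all genes, 5.21% were called in ESC and 1.03% in NPC. At an unadjusted limma p under 0.05 there was 1 of 11 in each, beside 19.2% and 9.52% of all genes. In knockdown NPC 3 of these 11 were higher and 3 lower than in ESC, beside 23.8% and 25% of all genes. In control NPC 5 were higher and 3 lower, beside 23.5% and 25.1% of all genes. Gata3, a GATA factor of trophoblast, ear and sympathetic neurons, rose by 1.69 ± 0.20 (SE, 3.23-fold, limma adjusted p = 1.03e-05), and Gata5, of endoderm and heart, by 0.84 ± 0.17 (SE). Dab1, the neuronal relative of Dab2 in the reelin pathway, rose by 1.15 ± 0.17 (SE). Foxa3, the liver member of the FOXA family, was lower by 0.94 ± 0.15 (SE); all 3 control NPC arrays (mean 5.78) lay under the low limit of 5.98, so the size of this difference is set against the floor of the array. Of 7 measured floor plate genes, 3 were higher and 2 lower in control NPC, beside 23.5% and 25.1% of all genes.

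For the 3 members whose group means spanned at least 1 log2 unit, the named genes with the most similar profile were found by the root-mean-square difference of the 12 centred array values. For Gata6 these were Dach2 (0.20), Nkain2 (0.24) and Tmem176a (0.25). For Foxa1 they were Vstm2b (0.20), 2610008E11Rik (0.21) and Twist1 (0.22). For Dab2 they were Peg3 (0.19), Nefl (0.25) and Sema3c (0.26). Peg3, an imprinted gene, had group means of 11.03 in control ESC, 10.37 in knockdown ESC, 12.22 in control NPC and 11.70 in knockdown NPC, the same order as Dab2.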

How the data were processed

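Each of the 12 arrays (MoGene 1.0 ST, 3 per group) has 1 deposited log2 value per probe set. Per the submitters' processing notes, the authors used affy, RMA and limma; the sources used here give no versions and no genome build. In RMA, background correction and quantile normalization precede probe summaries. Differences between values near the floor may be compressed. Coordinates and promoter letters are RefSeq's on GRCm38.p6. Array medians lay between 7.70 and 7.79. Precision depends on the number of arrays and on the spread of each gene.

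The platform annotation gave 18786 of 21212 probe sets 1 symbol and 6 several, and did not list 2420. The probe set with the highest mean stood for a gene, which gave 18784 genes. In R 4.3.3, limma 3.58.1 fitted 1 mean per group over the 12 arrays (lmFit, contrasts.fit, eBayes, 8 residual and 4.81 prior degrees of freedom), with Benjamini-Hochberg adjustment over 18784 genes, a threshold of 0.05 and two-sided tests. The steps were run on simulated data with known changes added. Those data had independent noise and no shared deviation of same-numbered arrays, and no result here rests on them.

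The 9 genes and the 11 lists (142 entries, 136 measured) were chosen with earlier results of these data known, so no list count is independent support. All 9 genes are named; of a list, up to 4 called genes with the smallest p; Kdm5b as the target; and the 3 most similar profiles per gene spanning at least 1 log2 unit. Genes of visceral endoderm and liver set beside Afp were named after their values were seen.

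Replicate numbers are those of the sample titles. In control cells, same-numbered ESC and NPC arrays deviated together from their group means (correlations across genes of 0.266, 0.286 and 0.334). The labels state no pairing, and the main fit had no replicate term, so the reported tests are unpaired. Only the replicate block among the alternatives paired arrays by number. The other comparisons had at least 1 correlation under 0.1. No 2 arrays of a group shared more than 0.33% of values, and each was counted separately. Alternatives were a replicate block, the 6 arrays of a comparison alone, a filter on low values, an intensity trend with robust prior, array weights, quantile normalization, median centring, the mean of probe sets, adjustment over all rows, a threshold of 0.01 and leaving out each array.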

Additional observations from a re-analysis of the deposited data

How the results depend on the processing

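The number of endoderm genes called with knockdown in ESC, 1 as reported, was 2 with array weights (Hnf4a added) and 0 at a threshold of 0.01, and ranged from 0 to 2 when single arrays were left out. In NPC it was 0, and ranged from 0 to 1. Counts in the other comparisons stayed within 1.5 times. The replicate block changed no call of the 9 genes; with it 1 gene was called in ESC and 0 in NPC. Over all genes the calls in ESC went from 979 to 2886 with array weights, 497 in the 6 arrays alone, 396 in these with the block, 201 at 0.01 and 193 to 1536 without single arrays; in NPC from 194 to 29, 57 and 64 in the same order after array weights, and 83 to 247. For the difference of effects, 267 became 955 with array weights, 152 with the block, 18 at 0.01 and 35 to 546 without single arrays. The filter on low values leaves out Afp, and the difference of effects cannot be fitted to 6 arrays.

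The differences that turned sign were all uncalled and near 0. With array weights Sox7 was at 0.055 in ESC and 0.054 in NPC with knockdown and -0.00063 for the difference of effects, Sox17 at -0.023 in NPC, Afp at -0.017 for the difference and Hnf4a at 0.12 from control ESC to control NPC. Median centring gave -0.0073 for the Afp difference, and quantile normalization 0.0071 for Hnf4a. Without single arrays the knockdown difference in ESC ranged from -0.24 to 0.041 for Sox7, -0.017 to 0.08 for Gata4, -0.018 to 0.16 for Gata6, -0.026 to 0.16 for Afp and -0.037 to 0.088 for Foxa2. In NPC it ranged from -0.082 to 0.19 for Foxa1, -0.17 to 0.095 for Sox7, -0.019 to 0.17 for Afp, -0.038 to 0.19 for Sox17 and -0.19 to 0.0018 for Hnf4a. The difference of effects ranged from -0.084 to 0.22 for Sox7, -0.08 to 0.12 for Afp and -0.19 to 0.039 for Sox17, and NPC minus ESC in control cells from -0.16 to 0.11 for Hnf4a. The cause of these shifts was not tested. Levels near the floor, as for Afp, limit what could be detected.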
